A study of Mus musculus with 3 samples.

Results

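CD23 and CD21 were each measured by RNA and by surface antibody in single spleen B cells of BXD2 mice, through the genes Fcer2a and Cr2 and the antibody tags antiCD23 and antiCD21. The members are the 2 gene rows of 32285 in the deposited matrices and the 2 tags of 12 surface antibody tags, or of 14 tags with the hashtags counted. They were taken by name, not by their values. After filtering and hashtag assignment 35102 cells remained, of which 34592 were B cells, 20080 of them R848 and 14512 IL-4+R848.

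All mice were female wild-type BXD2 mice, a lupus-prone recombinant inbred strain. The IL-4+R848 mice were injected intraperitoneally with a long-acting complex of 5 µg IL-4 and 25 µg anti-IL-4 antibody (clone BVD4–1D11), and the R848 mice with 25 µg of the antibody without IL-4. Mice of both treatments, 3 per treatment, were given the TLR7 agonist R848 at 40 µg per 20 g body weight 2 h later, were dosed again the same way after 2 days, and were killed after 2 further days. Spleen B cells were enriched by negative selection, marked with hashtag antibodies for treatment, stained with the feature antibodies and run as 3 pooled 5′ libraries, here called sets 1, 2 and 3. The comparison of the treatments therefore sets IL-4 complexed with its antibody against the antibody alone, with R848 in both. The labels do not give the age of the mice or say whether a set holds 1 mouse of each treatment, so p-values measure the spread between sets, which may be technical.

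CD23 is the low-affinity receptor for IgE, is induced by IL-4 through STAT6 in B cells, and is shed from the surface by the protease ADAM10. CD21 binds fragments of complement C3 and, with CD81 and other proteins, forms the coreceptor that lowers the threshold of the antigen receptor. In the mouse the gene Cr2 also encodes CD35 by alternative splicing. In a resting spleen, follicular B cells carry CD23 with intermediate CD21, and marginal zone B cells carry high CD21 with little CD23, a position that needs Notch2 signalling through the DNA-binding protein RBPJ.

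In GRCm38, Fcer2a (ENSMUSG00000005540) lies on the reverse strand of chromosome 8 from 3681737 to 3694175, with 8 annotated transcripts of up to 12 exons. Cr2 (ENSMUSG00000026616) lies on the reverse strand of chromosome 1 from 195136811 to 195176716, with 12 annotated transcripts of up to 25 exons. Both genes matched the RefSeq promoter table, with 3 start sites for Fcer2a and 1 for Cr2, and the windows run from 250 bases before the start to 50 after it. They are shown because IL-4 acts through STAT6 and the marginal zone position through RBPJ. Capitals mark a match to the STAT6 motif TTCNNNNGAA or the RBPJ motif GTGGGAA, which were searched on both strands with the general STAT motif TTCNNNGAA. Each is written 5′ to 3′ on the gene's strand.
Cr2 promoter, chr1:195176670-195176969, reverse strand: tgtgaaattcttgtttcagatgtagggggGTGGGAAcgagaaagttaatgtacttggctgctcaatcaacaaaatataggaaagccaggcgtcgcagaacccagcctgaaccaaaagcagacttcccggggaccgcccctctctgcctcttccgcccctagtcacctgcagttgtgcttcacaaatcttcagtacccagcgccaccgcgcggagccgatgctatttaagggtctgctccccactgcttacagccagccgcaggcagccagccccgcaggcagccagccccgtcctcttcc
Fcer2a promoter 2, chr8:3690812-3691111, reverse strand: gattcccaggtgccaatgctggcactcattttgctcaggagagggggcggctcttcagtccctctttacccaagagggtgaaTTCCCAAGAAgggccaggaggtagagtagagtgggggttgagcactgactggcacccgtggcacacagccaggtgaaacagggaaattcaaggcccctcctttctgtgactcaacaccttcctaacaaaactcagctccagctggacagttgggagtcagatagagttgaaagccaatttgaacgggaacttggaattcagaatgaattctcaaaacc
Fcer2a promoter 1, chr8:3694125-3694424, reverse strand: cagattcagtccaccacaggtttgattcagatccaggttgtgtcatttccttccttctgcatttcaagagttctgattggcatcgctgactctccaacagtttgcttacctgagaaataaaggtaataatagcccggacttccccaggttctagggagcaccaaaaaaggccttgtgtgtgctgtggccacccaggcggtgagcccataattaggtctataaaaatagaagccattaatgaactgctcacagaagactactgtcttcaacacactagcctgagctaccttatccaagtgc
The Cr2 window holds 1 RBPJ match, 221 bases before the start, and the second Fcer2a window holds 1 STAT6 match, 168 bases before it. The first and the third Fcer2a windows hold none of the 3 motifs, and no window holds TTCNNNGAA. Among 32851 RefSeq windows of 300 bases in GRCm38.p6, 6.95% hold the STAT6 motif, 8.3% the general STAT motif and 6.38% the RBPJ motif, so a match describes the letters and not a bound site.

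The sets held 11389 to 14519 barcodes each, of which 8.28% to 10.8% carried both hashtags and were left out, and 219 to 289 barcodes were shared between any pair of sets. Median gene UMIs per cell were 4446 to 5932 in R848 cells and 5199 to 6995 in IL-4+R848 cells, higher with IL-4 in each set. The summed surface tags were also higher, with medians of 640, 618 and 465 UMIs in R848 cells of sets 1 to 3 and 914, 890 and 656 in IL-4+R848 cells, and so were the hashtags (1257 to 1400 against 1732 to 2236). Tag levels are therefore given per cell and as a share of all surface tag UMIs, and the part of depth or staining in the per-cell differences was not tested. Clustering on RNA without Fcer2a, Cr2 and the tags gave 20 clusters, of which 8 classes of B cells were named from marker lists. NK-like cells, which were few (28 to 105 per set) and are not known to carry either receptor, gave the tag background: their median CD23 tag averaged 26.2 UMIs in R848 and 30.7 in IL-4+R848 cells, and their median CD21 tag 10.5 and 8.33. Their mean CD23 tag was 176 ± 228 UMIs in R848 and 49.4 ± 13.5 in IL-4+R848 cells (SD, n = 3). The mean CD21 tag was 78.2 ± 104 and 14.4 ± 7.85. The group thus holds some cells with high tags, and the gates below rest on its upper tail.

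Across all B cells the 2 receptors moved in opposite directions with IL-4, at the RNA and at the surface. Fcer2a RNA, in CPM (UMIs of the gene over all gene UMIs of the summed cells, scaled to one fixed total), was 148, 131 and 101 in R848 sets 1 to 3 and 185, 242 and 204 in IL-4+R848. The groups did not overlap, and the mean went from 126 ± 23.9 to 210 ± 28.8 CPM (SD, n = 3). The log2 difference was 0.82 ± 0.13 (SE; edgeR quasi-likelihood test, Benjamini-Hochberg adjusted p = 0.0137). It depended on single sets: the adjusted p from the same edgeR test was 0.0177 without set 1, 0.149 without set 2 and 0.105 without set 3. Of 12737 genes tested in this comparison 10.5% were called, 5.83% higher (743 genes) and 4.69% lower (597); without TMM scaling the split was 336 higher and 714 lower.

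Cr2 RNA was 79.7, 71.9 and 55.0 CPM in R848 and 26.3, 32.4 and 25.9 CPM in IL-4+R848. Every IL-4+R848 value lay below every R848 value, and Cr2 fell by 1.2 ± 0.13 on the log2 scale (SE; edgeR quasi-likelihood test, adjusted p = 0.00248). In this sum over all B cells a change in the make-up of classes and a change of RNA per cell cannot be told apart; marginal zone-like cells, the class with the highest Cr2, were 6.09% of B cells in R848 and 2.11% in IL-4+R848.

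The CD23 tag averaged 180, 201 and 169 UMIs per cell in R848 and 480, 470 and 387 in IL-4+R848, a mean of 183 ± 16.4 against 446 ± 50.6 (SD, n = 3). Medians over cells were 117, 131 and 99 against 352, 341 and 260. All 3 IL-4+R848 values were above all R848 values by either measure, and the medians of both treatments were above those of NK-like cells. As a share of surface tags CD23 rose by 0.71 ± 0.07 on the log2 scale (SE; edgeR quasi-likelihood test, adjusted p = 1.61e-05), in a comparison where 58.3% of the 12 tags were called. Per cell, with the number of cells as library size and set as a block, the rise was 1.28 ± 0.06 (edgeR, adjusted p = 1.66e-05), so the size of the rise depends on the scale.

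The CD21 tag averaged 118, 98.2 and 65.2 UMIs per cell in R848 and 43.9, 45.2 and 31.6 in IL-4+R848 (93.9 ± 26.8 against 40.2 ± 7.52, SD, n = 3). The groups did not overlap, and set 3 was the lowest in both. As a share of surface tags CD21 fell by 1.77 ± 0.16 on the log2 scale (SE; edgeR, adjusted p = 1.4e-05), and per cell with set as a block by 1.2 ± 0.12 (edgeR, adjusted p = 0.00042). The exact two-sided permutation test of 3 sets against 3 gave p = 0.1 for each tag, the smallest it allows, among 18 such tests over the classes.

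**Figure D1:**
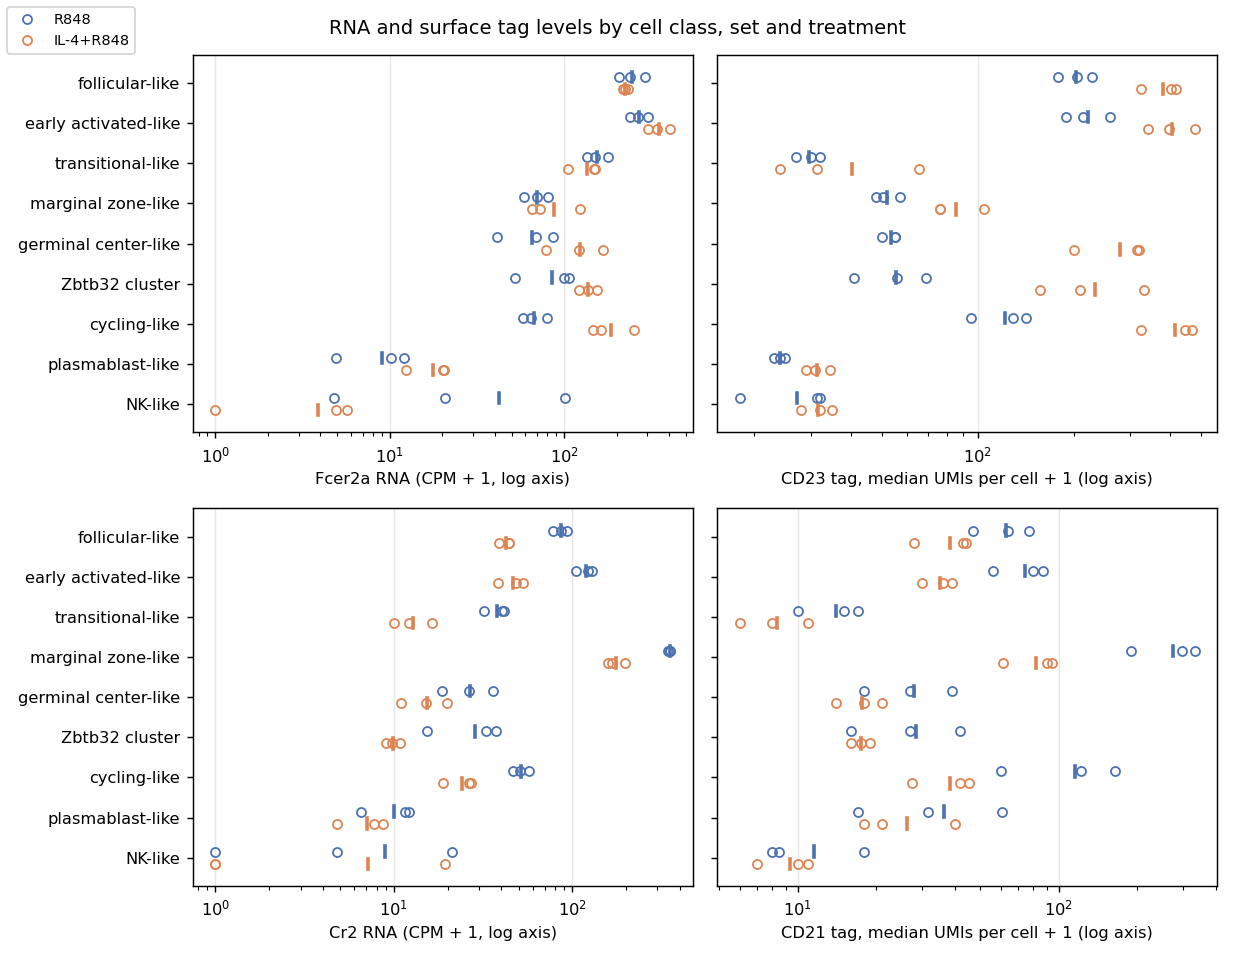
Fcer2a and Cr2 RNA (CPM + 1, log axis) and the median CD23 and CD21 tag (UMIs per cell + 1, log axis) by B cell class and in NK-like cells, with 1 circle per set and treatment and a bar at the mean. The CD21 tag and Cr2 are highest in marginal zone-like cells in both treatments, and CD23 tag medians are higher with IL-4+R848 in most classes.

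Over all B cells, whether tag or RNA moved more depended on the scale. For CD21, Cr2 UMIs per cell fell by 1.28 ± 0.15 on the log2 scale (mean and SD of 3 sets) and the CD21 tag by 1.2 ± 0.2, so tag minus RNA was 0.08 ± 0.07, while as a share of tags the tag fell by 1.77 and Cr2 in CPM by 1.2. For CD23, Fcer2a UMIs per cell changed by 0.75 ± 0.23 and the tag by 1.28 ± 0.12, with tag minus RNA at 0.94, 0.38 and 0.29 in sets 1 to 3. The CD23 difference per cell was positive in every set and widest in set 1, while as a share of tags the tag rose by 0.71 and Fcer2a in CPM by 0.82. The larger number of surface tag UMIs per IL-4+R848 cell bears on the tag per cell.

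Within follicular-like cells, the largest class (41.3% of B cells in R848 and 42.2% in IL-4+R848; named from markers such as Ighd, the IgD heavy chain), the CD23 tag was higher with IL-4 while Fcer2a RNA was not called. Fcer2a was 289, 238 and 207 CPM in R848 and 217, 231 and 223 CPM in IL-4+R848. The groups overlapped, and the log2 difference was 0.03 ± 0.10 (SE; edgeR quasi-likelihood test, adjusted p = 0.888; 10.7% of 11000 genes were called, 666 higher and 511 lower). Leaving out TMM scaling moved the median of all genes in this class by −0.14 on the log2 scale, the split of calls to 376 higher and 2185 lower, and the Fcer2a difference to −0.13 (edgeR, adjusted p = 0.357). The tag was 254, 277 and 234 UMIs per cell in R848 and 531, 537 and 450 in IL-4+R848. There the groups were far apart, with a rise of 0.39 ± 0.05 as a share of tags (edgeR, adjusted p = 2.55e-09; 66.7% of the 12 tags were called) and of 0.99 ± 0.05 per cell with set as a block (edgeR, adjusted p = 0.000119).

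The follicular-like result for Fcer2a rested on where the class was drawn. Cluster 4, 96.6% of whose cells were IL-4+R848 and which was led by Gadd45g, Il4i1 and Nfil3, met no marker list and was left unnamed; it held 0.551% of B cells in R848 (112 cells) and 22.0% in IL-4+R848 (3179 cells). With cluster 4 joined to the follicular-like cells, the Fcer2a difference was 0.33 ± 0.09 (SE; edgeR quasi-likelihood test, adjusted p = 0.0414). When the genes that differed between treatments were kept out of the clustering, it was 0.48 (edgeR, adjusted p = 0.00193), and when expression was centred within sets only, 0.16 (edgeR, adjusted p = 0.36). In cluster 4 itself Fcer2a was 380, 427 and 350 CPM in R848 and 418, 412 and 394 CPM in IL-4+R848, high in both. Its CD23 tag was 214, 278 and 212 UMIs per cell in R848 and 638, 592 and 487 in IL-4+R848, while its R848 values came from 26 to 43 cells a set.

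In each way of drawing the follicular-like class the CD23 tag rose more than Fcer2a UMIs per cell. Tag minus RNA on the log2 scale was 0.74 ± 0.33 as drawn (SD; 1.12, 0.61 and 0.50 in sets 1 to 3), 0.49 ± 0.36 with cluster 4, 0.54 ± 0.33 without treatment genes in the clustering and 0.57 ± 0.35 with centring within sets. All 3 sets were positive in each of these. These differences are per cell, and the larger number of surface tag UMIs per IL-4+R848 cell bears on them too. As a share of surface tags, CD23 in the class as drawn went from 32.4% in R848 to 42.6% in IL-4+R848, a smaller step than per cell. The part of depth or staining was not tested. Follicular-like cells held more gene UMIs with IL-4 (medians of 4441, 5350 and 4007 in R848 and 6035, 7390 and 5229 in IL-4+R848), so Fcer2a per cell moved further up than its CPM did.

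Cr2 and the CD21 tag fell together in follicular-like cells. Cr2 was 92.9, 85.1 and 77.0 CPM in R848 and 43.4, 43.0 and 37.7 CPM in IL-4+R848, a fall of 0.88 ± 0.08 on the log2 scale (SE; edgeR quasi-likelihood test, adjusted p = 5.9e-05) and of 1.27 with cluster 4. The CD21 tag was 109, 93.7 and 69.2 UMIs per cell in R848 and 54.7, 54.8 and 38.5 in IL-4+R848. Neither pair of groups overlapped, and the tag fell by 1.47 ± 0.11 as a share of tags and by 0.87 ± 0.06 per cell (edgeR, set as a block, adjusted p = 0.000347). Other tags also moved in these cells: the IgD tag averaged 337 and 468 UMIs per cell, the IgM tag 21.8 and 43.6, and GL7, an activation and germinal center epitope, 11.2 and 51.8. Besides CD21, the tags with a lower mean per cell were CD138 (17.9 and 8.03 UMIs) and CD93 (9.25 and 6.80), and the remaining tags were higher. As a share of surface tags IgD went from 42.8% to 39.3%.

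Marginal zone-like cells, named from markers such as S1pr3 and Cd1d1, had the highest Cr2 and CD21 tag of the 8 classes in both treatments, and both fell with IL-4. Cr2 was 345, 352 and 354 CPM in R848 and 158, 167 and 197 CPM in IL-4+R848, so every IL-4+R848 set lay below every R848 set but above the next class, early activated-like cells at 118 ± 12.6 CPM in R848. Cr2 fell by 0.97 ± 0.10 on the log2 scale (SE; edgeR quasi-likelihood test, adjusted p = 9.42e-05), in a class where 1.56% of genes were called. The CD21 tag was 376, 333 and 235 UMIs per cell in R848 and 110, 119 and 77.5 in IL-4+R848. The tag fell further than the RNA per cell: 1.62 ± 0.15 against 1.02 ± 0.10 on the log2 scale (SD, n = 3), a tag minus RNA of −0.60 ± 0.18 that was negative in all 3 sets. The class held 324 to 549 cells a set in R848 and 92 to 119 in IL-4+R848, and Cr2 was among its leading genes although it was not used to cluster.

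Fcer2a in marginal zone-like cells was 80.1, 58.1 and 68.9 CPM in R848 and 122, 71.9 and 64.1 CPM in IL-4+R848. The groups overlapped, and the difference of 0.34 was not called (edgeR, adjusted p = 0.599). It was called with looser cell filters (0.44, edgeR adjusted p = 0.0395) and was −0.23 with centring within sets, so even its sign rests on how the class is drawn. The CD23 tag was 98.0, 98.5 and 101 UMIs per cell in R848, close together, and 266, 163 and 121 in IL-4+R848, widely spread but all higher. Its rise was 1.08 ± 0.19 as a share of tags (edgeR, adjusted p = 0.00526; 33.3% of the tags were called) and 0.81 ± 0.22 per cell with set as a block (edgeR, adjusted p = 0.0441).

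Early activated-like cells, marked by Egr1, Nr4a1 and Myc, had the highest mean Fcer2a of the named classes, though it overlapped with follicular-like cells in R848. It was 301, 265 and 236 CPM in R848 and 339, 406 and 303 CPM in IL-4+R848, a log2 difference of 0.49 ± 0.11 (SE; edgeR quasi-likelihood test, adjusted p = 0.0439; 2.41% of genes were called). The groups did not overlap but lay close, and the call was lost without TMM scaling (adjusted p = 0.115), without set 1 (0.053) and without set 2 (0.471) in the same edgeR test. Cr2 in these cells was 128, 122 and 104 CPM in R848 and 51.7, 47.3 and 37.4 CPM in IL-4+R848, a fall of 1.26 ± 0.13 (edgeR, adjusted p = 0.000161). The CD23 tag went from 273 to 504 UMIs per cell and the CD21 tag from 110 to 49.2 (means of 3 sets), in a class where 83.3% of tags were called.

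Transitional-like cells, newly arrived B cells marked by Vpreb3 and Akap12, had low CD23 and CD21 tags per cell, and low Fcer2a per cell too. In R848 their Fcer2a UMIs per cell averaged 0.461, against 1.25 in follicular-like cells. Their mean CD23 tag was 94.1 UMIs per cell, against 255. Fcer2a was 178, 149 and 134 CPM in R848 and 147, 148 and 105 CPM in IL-4+R848 and was not called (log2 difference −0.12; edgeR, adjusted p = 0.79; 2.97% of genes were called). This too rested on the class: it was 0.18 with looser cell filters, 0.47 without treatment genes in the clustering and 1.24 with centring within sets, the last 2 called (edgeR, adjusted p = 0.0164 and 1.96e-06). Centring within sets brought a cluster of 3036 cells into the class, 99.6% of them IL-4+R848 and led, like cluster 4, by Gadd45g. The 1.24 is therefore no difference within the class as first drawn. Their median CD23 tag in R848 was 28.7 UMIs, near the 26.2 of NK-like cells, against 202 in follicular-like cells. Against follicular-like cells the log2 difference as a share of surface tags was −0.41 for CD23 and −0.68 for CD21, and per cell −1.56 and −1.89 (all called by edgeR; 75% of the 12 tags differed between these classes). With IL-4 the CD23 tag went from 90.1, 105 and 87.1 UMIs per cell to 223, 153 and 94.7, with set 3 of IL-4+R848 inside the R848 range. Its rise was 0.55 ± 0.13 as a share (edgeR, adjusted p = 0.000633; 41.7% of tags called) but was not called per cell (0.66; edgeR with set as a block, adjusted p = 0.112). Median gene UMIs were 2301 to 3212 in R848 transitional-like cells, the lowest of the named classes, and the part of cell size or depth was not tested. Cr2 fell from 36.9 to 11.8 CPM, by 1.55 ± 0.23 (edgeR, adjusted p = 0.0016; 0.0599 without set 2).

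The germinal center-like, cycling and Zbtb32-led cells had low Fcer2a in CPM in R848 and a large rise of the CD23 tag. Per cell, their Fcer2a UMIs in R848 averaged 1.02, 1.03 and 0.642, against 1.25 in follicular-like cells. In germinal center-like cells, named from markers such as Mef2b, Fcer2a was 85.0, 67.9 and 40.3 CPM in R848 and 121, 167 and 77.8 CPM in IL-4+R848. These groups overlapped, and the difference of 0.97 ± 0.27 was not called (edgeR, adjusted p = 0.257; 0.4% of genes were called) except with set as a block (adjusted p = 0.0241). The CD23 tag in these cells was 113, 108 and 103 UMIs per cell in R848 and 464, 488 and 320 in IL-4+R848, a log2 difference of 1.95 ± 0.28 (SD, n = 3), the largest of the 8 classes. Their Cr2 went from 25.9 to 14.4 CPM, by −1.81, −0.42 and −0.31 in sets 1 to 3. Their CD21 tag went from 60.4 to 38.0 UMIs per cell, by −1.23, −0.29 and −0.42. Both falls were widest in set 1 (exact permutation p = 0.2 for each). As a share of surface tags CD21 went from 8.13% to 3.03%.

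In cycling cells, marked by Mki67 and Top2a, Fcer2a was 78.8, 63.4 and 57.3 CPM in R848 and 144, 250 and 162 CPM in IL-4+R848. All IL-4+R848 values were higher, and Fcer2a rose by 1.54 ± 0.20 (SE; edgeR quasi-likelihood test, adjusted p = 0.00321), where 1.2% of genes were called. Their CD23 tag went from 187 to 587 UMIs per cell and their CD21 tag from 163 to 60.1. Cr2 went from 50.5 to 23.2 CPM, by −1.04 ± 0.16 (edgeR, adjusted p = 0.00995), a call that was lost when any set was left out.

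The cluster led by S100a6 and Zbtb32 raised 4 of 7 age-associated markers but not Itgax, the gene for CD11c, and is named by its lead gene. Fcer2a there went from 84.7 to 137 CPM, a log2 difference of 0.76 ± 0.22 that was called only with set as a block (edgeR, adjusted p = 0.113 without and 0.0337 with the block; 2.86% of genes were called). Cr2 went from 27.5 to 8.91 CPM (−1.59 ± 0.33; edgeR, adjusted p = 0.0307, and 0.253 and 0.182 without sets 1 and 2). The CD23 tag went from 140 to 426 UMIs per cell, in each set a wider step than that of Fcer2a in CPM, which is another scale. As a share of surface tags CD23 went from 28.7 ± 1.56% to 52.3 ± 3.09% (SD, n = 3), a smaller step than per cell.

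Plasmablast- or plasma cell-like cells, marked by Jchain and Prdm1, had the least of both RNAs in CPM among the 8 classes. Fcer2a averaged 8.03 CPM in R848 and 16.6 in IL-4+R848, and Cr2 9.06 and 6.09 CPM. Neither was called, and no gene was called in this class (0.0% of 10278 tested). Their median CD23 tag, 23 and 30.5 UMIs, was close to the NK-like background of 26.2 and 30.7, although the mean went from 48.8 to 122 UMIs and CD23 was the 1 tag called as a share (1.01 ± 0.26 on the log2 scale; edgeR, adjusted p = 0.00311, and 0.249 with a stricter hashtag rule; 8.33% of tags). The CD21 tag averaged 79.3 and 58.6 UMIs per cell, with a median of 35.3 in R848 against 10.5 in NK-like cells, so it lay above that background. Cr2 was low in CPM, which is another scale. Its UMIs per cell in R848 averaged 0.170 ± 0.0616, against 0.0549 ± 0.0770 in NK-like and 0.112 ± 0.0307 in transitional-like cells (SD, n = 3). The CD21 groups overlapped, and the fall was not called (edgeR, adjusted p = 0.0694).

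The order of the classes differed between RNA in CPM and tag per cell, which are different scales. In R848, Fcer2a fell in the order early activated-like, follicular-like, transitional-like, Zbtb32-led, marginal zone-like, cycling, germinal center-like and plasmablast-like, where neighbours overlapped at every step but 3. The CD23 tag put cycling cells in place 3 and transitional-like cells in place 7 of 8. Cr2 put transitional-like cells above the Zbtb32-led and germinal center-like cells, and the CD21 tag put them last, where Cr2 put plasmablast-like cells. In RNA UMIs per cell these differences were absent. By the means in R848, Fcer2a per cell also put cycling cells in place 3 (1.03) and transitional-like cells in place 7 (0.461). Cr2 per cell also put transitional-like cells last (0.112, against 0.170 in plasmablast-like cells). Over the 8 class means in R848 Pearson's r was 0.83 for Fcer2a with the CD23 tag and 0.65 for Cr2 with the CD21 tag, and in IL-4+R848 it was 0.79 and 0.59, as descriptions over classes that share the sets and differ in depth.

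The tags themselves were tested between classes, since they took no part in the clustering. In marginal zone-like against follicular-like cells the log2 difference as a share of surface tags was 1.86 ± 0.17 for CD21 and −1.01 ± 0.14 for CD23 (SE; edgeR quasi-likelihood test with set and treatment as terms; 83.3% of the 12 tags differed). Per cell the same differences were 1.45 and −1.41. In plasmablast-like cells CD23 was lower (−1.79), and CD21 was 0.49 higher as a share but 0.05 per cell, which was not called. Early activated-like cells differed from follicular-like cells in neither tag (0.07 for CD23 and 0.18 for CD21; none of the 12 tags was called, 0.0%).

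**Figure D2:**
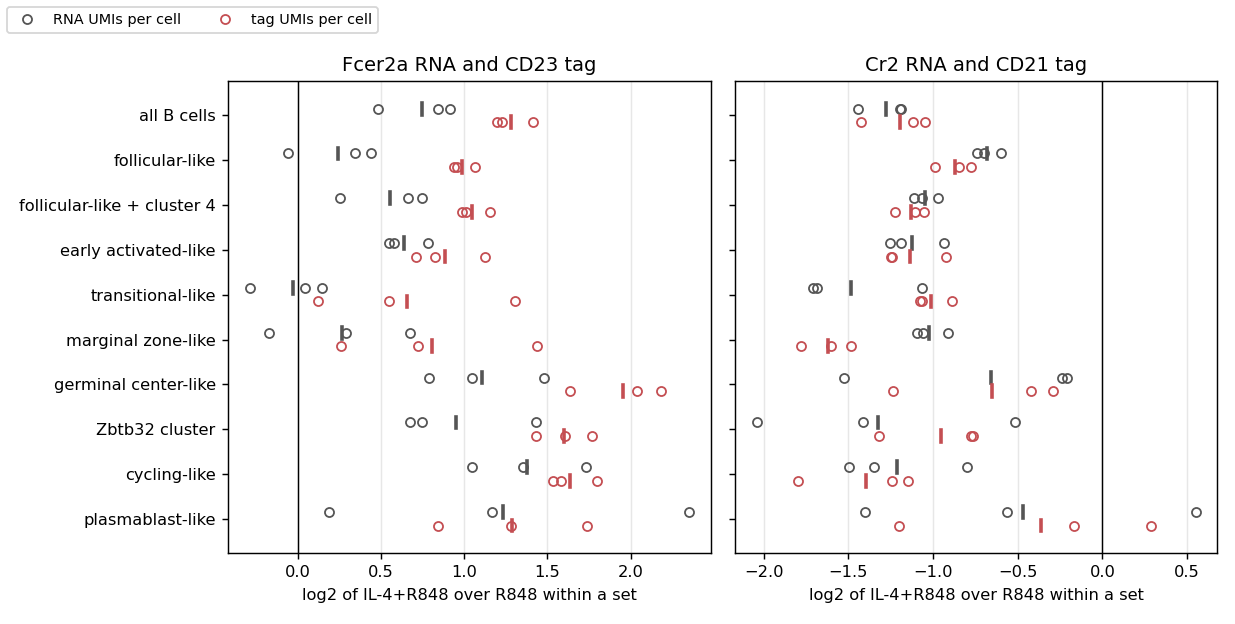
Log2 of IL-4+R848 over R848 (x axis) in RNA UMIs per cell (grey) and tag UMIs per cell (red) for each class (y axis), with 1 circle per set and a bar at the mean; the left panel shows Fcer2a and the CD23 tag, the right panel Cr2 and the CD21 tag. The CD23 tag bar lies to the right of the Fcer2a bar in each class, and in marginal zone-like cells the CD21 tag bar lies to the left of the Cr2 bar.

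Whether the tag response differed between classes depended on the scale of the tag. As shares of surface tags, the CD23 rise was larger than in follicular-like cells by 0.80 ± 0.19 on the log2 scale in germinal center-like cells (SE; edgeR interaction test, adjusted p = 0.00106) and by 0.69 ± 0.19 in marginal zone-like cells (adjusted p = 0.00561). Both calls were lost without set 2 (0.138 and 0.21 in the same edgeR test) and the second also without set 1 (0.109). In these interaction tests 33.3% of the 12 tags were called in germinal center-like and 25% in marginal zone-like cells. With cells as library size the germinal center-like difference was 0.97 (adjusted p = 0.00502 in the same edgeR test), and the marginal zone-like one was −0.14 and was not called. For CD21 the fall in marginal zone-like cells was larger than in follicular-like cells with cells as library size (difference −0.75; edgeR, adjusted p = 0.0255), and as a share the difference was 0.13 and not called. For RNA neither Fcer2a nor Cr2 differed between classes past the threshold, the nearest being Fcer2a in cycling cells (1.48 ± 0.32, edgeR, adjusted p = 0.0543; 0.00948% of 10547 genes were called). Of the other classes, 1.44% of genes were called in germinal center-like cells, where Fcer2a was at 0.90, and 1.34% in plasmablast-like cells, where it was at 1.01, with neither called (edgeR, adjusted p = 0.16 and 0.167).

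Cell by cell, more RNA went with more tag for both receptors, within each treatment. Each cell was thinned to 3000 gene UMIs, which left out 20.1% of R848 and 13% of IL-4+R848 cells that were shallower. The tags were not thinned or scaled, and surface tag UMIs per cell were higher in IL-4+R848 cells. Equal RNA UMIs after thinning stand for an equal share of gene UMIs, not for equal RNA per cell. The part of depth or staining in the tag difference between treatments was not tested. In follicular-like R848 cells the CD23 tag averaged 217 ± 19.3 UMIs in cells with no Fcer2a UMI, 295 in those with 1, 349 with 2 and 392 ± 20.5 with 3 or more (SD over 3 sets). In IL-4+R848 the values were 445 ± 41.7, 556, 754 ± 203 and 727 ± 31.5. The IL-4+R848 cells with no Fcer2a UMI (397 to 473 over sets) thus reached the CD23 tag of R848 cells with 3 or more (371 to 411), with ranges that overlapped at their ends.

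For CD21 the treatments parted at equal thinned RNA UMIs in the other direction, again with tags not thinned. Follicular-like R848 cells with 0, 1, 2 and 3 or more Cr2 UMIs averaged 85.2, 140, 190 and 239 CD21 tag UMIs. The IL-4+R848 cells averaged 48.4, 71.0, 95.3 and 136, the last from 10 cells in all. In marginal zone-like cells the steps were 258, 332, 364 and 421 in R848 and 91.2, 104, 146 and 158 in IL-4+R848. There the 15 IL-4+R848 cells with 3 or more Cr2 UMIs held less CD21 tag (129 to 183 over sets) than R848 cells with none (184 to 309). A cell with no UMI after thinning may still express the gene, since the median cell gave few UMIs of either.

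**Figure D3:**
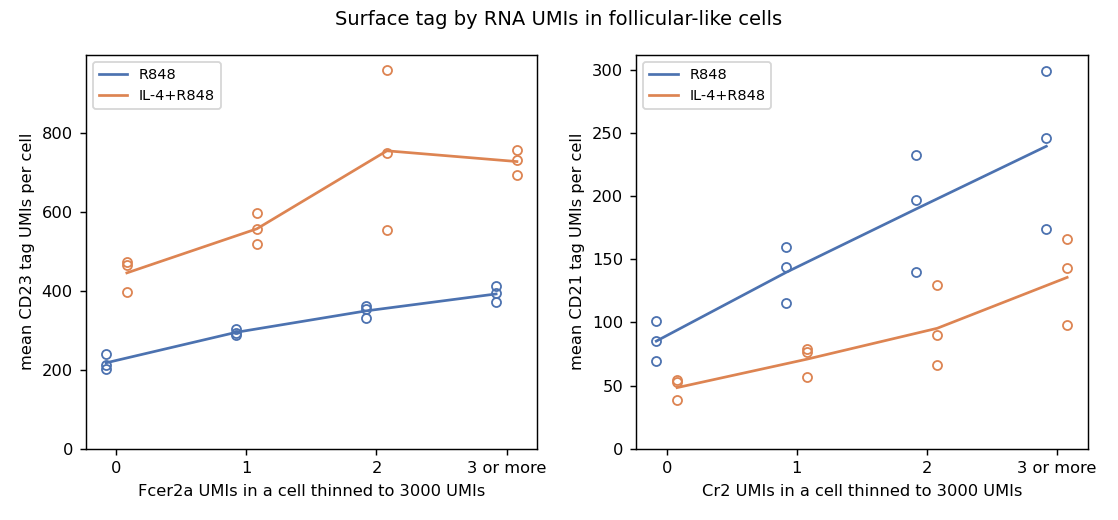
Mean tag UMIs per cell in follicular-like cells by the number of RNA UMIs of the same receptor after thinning to 3000 gene UMIs; circles are sets, lines join the means over sets and colours are treatments. Mean tag is higher in cells with RNA UMIs than in cells with none in both treatments. At equal thinned RNA UMIs the CD23 tag per cell is higher and the CD21 tag lower with IL-4+R848, with tags not thinned.

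Read the other way, RNA rose over 4 equal bins of cells ranked by tag. In R848 B cells Fcer2a was 7.46, 61.6, 195 and 307 CPM from the lowest to the highest bin of the CD23 tag, and in IL-4+R848 cells 30.4, 170, 269 and 359 CPM. Cr2 over bins of the CD21 tag was 4.86, 21.3, 57.4 and 171 CPM in R848 and 1.87, 8.11, 28.2 and 63.1 CPM in IL-4+R848. Within follicular-like cells the steps were smaller for Fcer2a, 95.4 to 361 CPM in R848 and 112 to 306 CPM in IL-4+R848. The lowest bin of all B cells held little of either RNA in both treatments.

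Spearman correlations across cells of a set, with 4513 to 7428 B cells each, were 0.52 to 0.57 for Fcer2a with the CD23 tag in R848 and 0.49 to 0.51 in IL-4+R848. For Cr2 with the CD21 tag they were 0.47 to 0.52 and 0.35 to 0.40. They were lower within follicular-like cells (medians over sets of 0.36 and 0.33 for CD23, and 0.39 and 0.32 for CD21, in R848 and IL-4+R848) and after thinning. Cells of a set share library and staining, and gene UMIs correlated with the CD21 tag by 0.23 to 0.38, so these are descriptions.

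The joint profile was read with gates per set. A cell was CD23+ or CD21+ above the 95th percentile of the NK-like cells of its set (CD23 above 110.4 to 119.75 UMIs, CD21 above 29 to 54.1) and CD21-high above the 90th percentile of all B cells of its set (125 to 207 UMIs). In R848, CD21-high CD23- cells, the marginal zone surface profile, were 7.03%, 5.64% and 4.5% of B cells, and in IL-4+R848 0.416%, 0.776% and 0.788%. CD21-high CD23+ cells went from 8.88%, 10.3% and 9.8% to 1.15%, 1.86% and 2.61%. Both CD21-high gates were smaller with IL-4 in every set. The CD21-high threshold was taken over both treatments of a set together, so a larger CD21-high share in R848 goes with a smaller share in IL-4+R848. These shares are therefore not independent of the fall of the CD21 tag.

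CD21- CD23+ cells were 13.5%, 7.38% and 11.3% in R848 and 51.6%, 32.9% and 43.3% in IL-4+R848, by the mean the largest gate after IL-4, though in set 2 CD21-mid CD23+ was larger. CD21-mid CD23+ cells, the follicular surface profile, were 27.1%, 34.7% and 25.9% against 22.5%, 40.4% and 24.2%, and these overlapped (29.2% against 29.0%, exact two-sided permutation p = 1). That held for tags per cell only: with tags divided by the other surface tags the gate went from 20.1% to 5.54% without overlap (exact permutation p = 0.1). CD21-mid CD23- cells went from 13.9% to 4.42% and CD21- CD23- cells from 30.8% to 21.4% (means of 3 sets), the latter a difference of −2.67 percentage points with overlap when tags were divided by the other surface tags (exact permutation p = 0.6). Apart from CD21-mid CD23+, each gate gave an exact permutation p of 0.1, the smallest for 3 against 3, and 0.12 after Benjamini-Hochberg adjustment over the 6 gates, so none passed. Cells counted as CD23+ depend on tag UMIs per cell, which were higher in IL-4+R848 cells for all surface tags together.

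**Figure D4:**
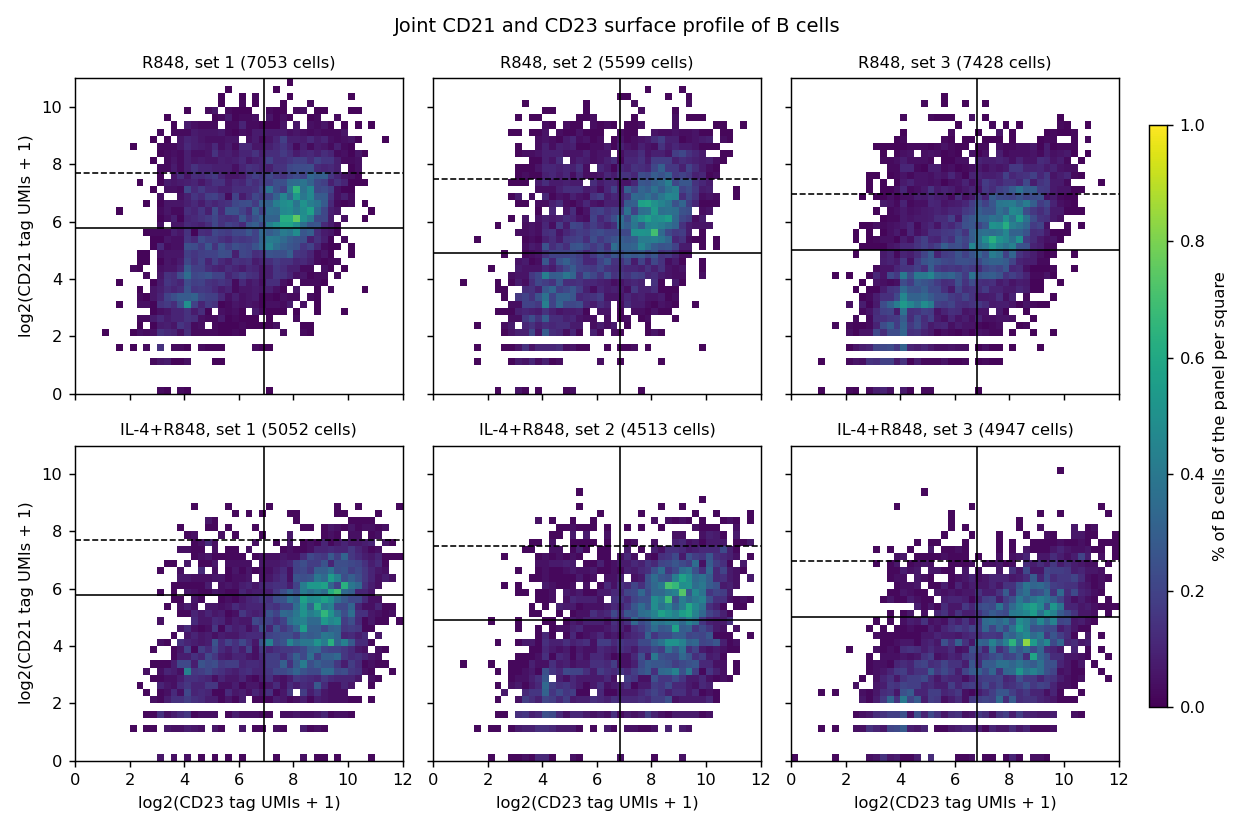
CD23 tag (x axis) against CD21 tag (y axis), both as log2 of UMIs + 1, for B cells of each set (columns) and treatment (rows), with colour for the percent of the panel's cells in each square; solid lines mark CD23+ and CD21+ and the dashed line CD21-high. With IL-4+R848 the cells lie further right and lower, and 32.9% to 51.6% lie in the CD21- CD23+ corner at the lower right.

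The gates moved within classes too. Of follicular-like cells, 14 ± 5.04% were CD21- CD23+ in R848 and 40.7 ± 12.7% in IL-4+R848 (SD, n = 3), while CD21-mid CD23+ was 45.8% and 43.7%. Of marginal zone-like cells, 53.6 ± 0.625% were CD21-high CD23- in R848 and 9.08 ± 4.99% in IL-4+R848, where 44.7% were CD21-mid CD23- and 29.6% CD21-mid CD23+. The CD21-high CD23- gate therefore held different cells in each treatment: 56.8% marginal zone-like, 17.8% plasmablast-like and 9.38% follicular-like in R848, but 29.4% marginal zone-like and 58.6% plasmablast-like in IL-4+R848, from 95 cells in all.

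The gates, drawn on tags, were then compared by RNA in R848 cells: CD21-high CD23- (316 to 496 cells a set) against CD21-mid CD23+ (1911 to 1944 cells a set), with set as a block. Of 10573 genes 19.6% were called, 10.9% higher (1151 genes) and 8.75% lower (925) in CD21-high CD23- cells, a split that without TMM scaling was 968 higher and 1463 lower. Fcer2a was 291, 252 and 219 CPM (here TMM-scaled) in CD21-mid CD23+ cells and 33.4, 20.3 and 21.7 CPM in CD21-high CD23- cells, a fall of 3.36 ± 0.13 on the log2 scale (SE; edgeR quasi-likelihood test, adjusted p = 0.000707). Cr2 was 78.7, 65.5 and 70.5 CPM against 249, 241 and 241 CPM, a rise of 1.77 ± 0.09 (edgeR, adjusted p = 0.00102). Both RNAs thus separated the gates without overlap, Fcer2a more widely than Cr2. Plasmablast-like cells gave 28.8% of the gene UMIs of the CD21-high CD23- gate (23.7% to 33.6% over sets) and 6.46% of those of the CD21-mid CD23+ gate. Without them, a comparison added after seeing the data, 1920 genes were called, Fcer2a fell by 3.08 and Cr2 rose by 2.04 (edgeR, adjusted p = 1.95e-08 and 4.59e-08).

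Of 14 genes of the marginal zone program, all tested, 13 were higher in CD21-high CD23- cells and none lower, with a median log2 difference of 1.84 against −0.01 over all genes tested. S1pr3, a sphingosine-1-phosphate receptor, was 7.47, 6.77 and 5.97 CPM against 65.5, 70.0 and 44.8 CPM (3.15 ± 0.11; edgeR, adjusted p = 0.000707). Cd9, a tetraspanin, was 12.7, 7.75 and 11.2 CPM against 78.1, 82.6 and 97.0 CPM (3.03 ± 0.15), Myof rose by 3.12 and Asb2 by 5.39 from under 1 CPM. Of 10 genes of the follicular program 8 were lower and 1 higher, with a median of −1.28, and without plasmablast-like cells also 8 and 1, with a median of −1.03. Ighd was 303, 349 and 331 CPM against 80.7, 66.2 and 73.9 CPM (−2.16 ± 0.12; edgeR, adjusted p = 0.00115).

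Of 17 genes of the Notch2 pathway and its proteases 5 were higher and none lower (median 0.16), against 4 and 3 of 16 with CD21-high at the 80th percentile, 3 and 1 by DESeq2, 5 and 1 with no filter on low counts and 5 and 1 without plasmablast-like cells. Those higher included Dtx1, a Notch target, at 77.1, 58.5 and 75 CPM against 197, 158 and 173 CPM (1.33 ± 0.09; edgeR, adjusted p = 0.00142), and the coactivator Maml2 and the targets Hes1 and Hes5, with log2 differences of 1.38, 1.05 and 0.55. Of 11 tested genes from the IL-4 receptor to STAT6, 7 were lower and none higher (median −0.55), and without plasmablast-like cells 6 and none (median −0.33). Il4ra, the receptor's alpha chain, was 48.8, 56.5 and 50 CPM against 22.4, 18.2 and 14.7 CPM (−1.47 ± 0.13; edgeR, adjusted p = 0.00255). In the same test Il4i1, an amino acid oxidase, fell by 1.39, Socs3, an inhibitor of cytokine signalling, fell by 1.10 and Ptpn6, a phosphatase, fell by 0.61.

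Among 15 tested genes of the CD21 coreceptor and the antigen receptor, 2 were higher and 5 lower (median −0.15), and without plasmablast-like cells 3 and 3 (median −0.11). Cd81, which stands with CD21 in the coreceptor, was 263, 214 and 275 CPM against 464, 395 and 430 CPM (0.78 ± 0.09; edgeR, adjusted p = 0.00424), and the adaptor Blnk rose by 0.53. Cd72, an inhibitory coreceptor, fell by 0.71 and Pik3cd, a lipid kinase subunit, fell by 0.68. Of 7 tested complement receptors and regulators, 2 were higher and 1 lower: Cd59a by 2.24, Cfp, the gene for properdin, by 1.13, and Cd55, a regulator of complement on the cell surface, by −1.35. Of 6 tested Fc receptors, 2 were higher and 1 lower: Fcrl5 by 2.00, Fcgr2b by 0.32 with overlapping sets, and Fcmr, the IgM Fc receptor, by −1.45.

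The widest differences over all genes were mostly immunoglobulin V genes, whose counts follow clones and differ between sets. Ighv10-1, Igkv5-48, Igkv13-85 and Ighv2-9-1 rose by 5.59, 4.17, 3.93 and 3.88, and Igkv4-62, Ighv7-1, Ighv1-20 and Igkv4-74 had differences of −7.61, −7.11, −5.77 and −5.51. V genes are near-identical copies among which reads can be split, so these values are uncertain, and sets overlapped for Ighv1-20. Without plasmablast-like cells, Igkv5-48 (−0.33), Igkv13-85 (1.15), Ighv2-9-1 (0.46) and Ighv1-20 (−1.15) were not called. The other 2 were Slit3, which rose by 4.16 ± 0.21, and Wfdc17, which fell by 3.72 ± 0.12 (SE; edgeR, adjusted p = 0.00103 and 0.000707).

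**Figure D5:**
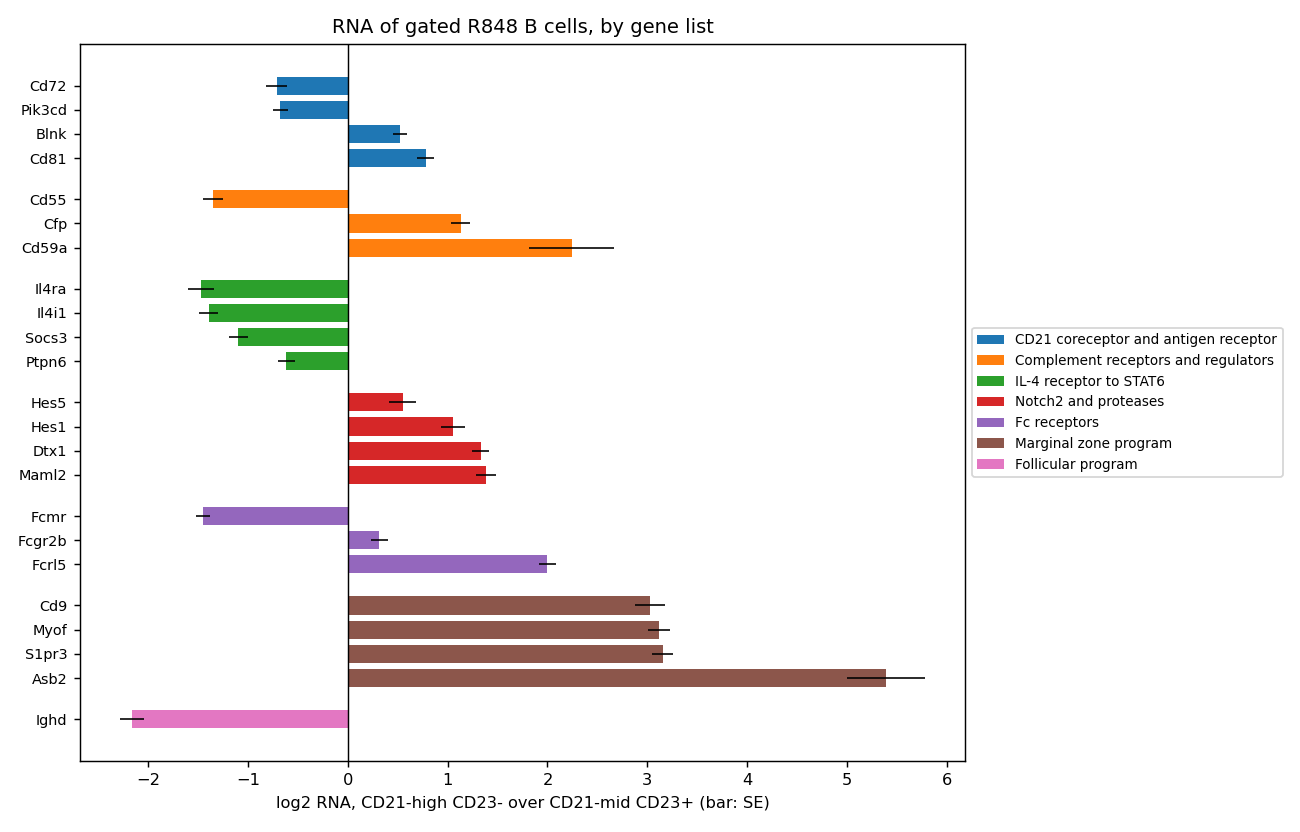
Log2 difference in RNA of CD21-high CD23- over CD21-mid CD23+ R848 cells (x axis) for up to 4 called genes of each list (y axis, colour by list), with bars for the fitted value and lines for 1 SE. The marginal zone genes reach furthest to the right, Asb2 at 5.39, and Ighd (−2.16) furthest to the left.

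In the IL-4+R848 cells the same gates gave a fall of Fcer2a by 4.81 and a rise of Cr2 by 1.33 (edgeR, adjusted p = 0.0148), with 1119 genes called (11.4% of those tested) in place of 2076. The CD21-high CD23- gate held mostly plasmablast-like cells there, and Hes5 and Cfp had differences below 0 (−0.62 and −0.29), opposite to R848.

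The same lists were read for IL-4 within follicular-like cells, where 6.05% of genes tested were higher and 4.65% lower. From the IL-4 receptor to STAT6, 4 of 11 tested were higher and 4 lower (median −0.08). The transcription factor gene Nfil3 was 3.47, 3.43 and 3.12 CPM in R848 and 57.8, 81.9 and 62.8 CPM in IL-4+R848 (TMM-scaled; 4.34 ± 0.16, edgeR, adjusted p = 1.07e-07), and Il4i1 rose by 1.89. Socs3 fell by 1.59. These genes moved in the same cells whose Fcer2a RNA was not called.

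Of 15 tested coreceptor and antigen receptor genes 3 were higher and 2 lower (median 0.02), with Cd79b, a chain of the antigen receptor, at 0.39, Pik3cd at −0.52 and Cd72 at −0.48. Of 6 complement genes tested none was higher and 1 lower, Cd55 at −0.31. Of 7 tested Fc receptors 1 was higher and 2 lower: Fcer1g, the shared gamma chain, was at 1.06, Fcrl5 at −1.0 and Fcmr at −0.71. Of 17 Notch2 pathway genes 2 were higher and 2 lower, with Dtx1 at 0.42, Maml3 at −1.05 and Maml2 at −0.71. The marginal zone program had 6 of 13 higher, led by Myof at 1.75, and 4 lower, led by Cd9 at −1.11, and the follicular program 2 of 10 higher and 4 lower, with Gpr183 at 0.67 and Ccr7 at −0.91 (all by edgeR, adjusted p under the threshold of 0.05).

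Over all B cells the counts higher and lower were 5 and 1 of 13 for the IL-4 receptor to STAT6, 3 and 3 of 16 for the coreceptor, 0 and 2 of 8 complement genes, 0 and 1 of 17 Notch2 genes, 0 and 2 of 8 Fc receptors, 2 and 4 of 14 marginal zone genes and 3 and 2 of 10 follicular genes. Over all genes tested the shares were 5.83% higher and 4.69% lower, and the Notch2 counts are near that background. Il4ra was 36.1, 38.2 and 35.0 CPM in R848 and 63.1, 74.6 and 72.7 CPM in IL-4+R848 (TMM-scaled), a rise of 0.94 ± 0.08 without overlap (SE; edgeR, adjusted p = 0.00103).

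Over 48 sums of set, treatment and named class, centred within sets, the genes most like Fcer2a in log2 CPM were Il4ra (Pearson's r 0.93), Lamp1 (0.91), Nfkb1 (0.90), Sorl1 (0.90) and Rpl35a (0.90), of 5356 compared. Those most like Cr2 were Rasgef1b (0.96), Dusp16 (0.89), Gpr171 (0.89), Sdhaf1 (0.88) and Nab1 (0.87). For the CD23 tag they were Rflnb (0.85), Serpinb6b (0.84), Hipk2 (0.81), Samsn1 (0.79) and Dexi (0.77), with Fcer2a the seventh at 0.74. For the CD21 tag they were Cd36 (0.80), Nab1 (0.72), Ahr (0.71), Fcrl5 (0.71) and Ppp1r15a (0.70), with Cr2 the seventh at 0.69. Each tag thus had its own RNA among its nearest genes but not first, and Fcer2a and Cr2 RNA were less alike (0.40).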

How the data were processed

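The authors deposited, per set, a filtered matrix of raw UMI counts for genes and antibody tags, made with Cell Ranger 6.0.1 and mm10, with Seurat 4.1.3 also named, per the submitters' processing notes. The members and all lists were chosen with earlier results of these data known. Cells were kept with at least 500 genes, under 10% mitochondrial UMIs, and one hashtag with at least 64 UMIs and 4 times the other; cells with both hashtags were dropped as doublets, and no doublet caller was run, so doublets of one treatment remain.

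Cells were clustered on 2000 variable genes without Fcer2a, Cr2 or tags, after centring within set and treatment (scanpy 1.11.5; 30 components, 15 neighbours, Leiden resolution 1), and a cluster was named when at least 3 markers of a list were raised and the list's mean lay 0.5 (log2) or more over the clusters. Clusters without a name, such as cluster 4, count in all B cells only. UMI counts were summed per set and treatment and tested with edgeR 4.0.16 (TMM, quasi-likelihood, Benjamini-Hochberg over all genes tested); tag counts used the surface tag total as library size. DESeq2 1.42.0, other filters and other class drawings were alternatives. Named genes: the members; per list, up to 4 (gates) or 3 (treatment) called genes with the largest difference moving the same way in all sets; 5 risers and 5 fallers between gates with a mean of at least 20 CPM; and the 5 most like genes.

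Set numbers come from the library titles, and both treatments of a set share a library. Deviations from treatment means correlated within sets by 0.373, 0.335 and 0.310 in follicular-like cells (4984 genes) and by 0.0133, 0.124 and 0.0499 over all B cells (5164 genes). Between different sets they correlated by −0.191 to −0.133 in follicular-like cells and by −0.146 to 0.0881 over all B cells. Sets were taken as pairs only where stated. The main treatment fits left set out also in follicular-like cells, where deviations went together within sets. The fits were tested on simulated counts with 200 genes changed by known folds. Of the genes called at an adjusted p under 0.05, 10.6% were false between gates, 8.81% over all B cells and 3.17% in follicular-like cells. Of the genes changed 2-fold, 65%, 78% and 86% were recovered, in the same order. Python 3.11.15 and R 4.3.3 were used. Precision is limited by 3 sets a treatment.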

Additional observations from a re-analysis of the deposited data

Results flagged for a closer look

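The IL-4 difference of a tag, as a share of surface tags, was compared between each of the 7 other classes and follicular-like cells. For the 2 tags, 6 comparisons passed the interaction test (edgeR quasi-likelihood test, Benjamini-Hochberg over 12 tags). Of all 12 tags, 25% were called in marginal zone-like, 33.3% in germinal center-like, 33.3% in cycling and 50% in plasmablast- or plasma cell-like cells. The share was 16.7% in transitional-like, 8.33% in Zbtb32-led and 0.0% in early activated-like cells. For the CD23 tag the difference was larger than in follicular-like cells by 0.69 ± 0.19 (log2, SE) in marginal zone-like, 0.80 ± 0.19 in germinal center-like, 0.56 ± 0.19 in cycling and 0.61 ± 0.19 in plasmablast- or plasma cell-like cells, with adjusted p-values of 0.00561, 0.00106, 0.0245 and 0.00736. For the CD21 tag it was −0.61 ± 0.22 in cycling cells (adjusted p = 0.0262), where the fall was larger, and 0.79 ± 0.22 in plasmablast- or plasma cell-like cells (adjusted p = 0.00416), where it was smaller. Without set 2 none of the 6 passed (adjusted p from 0.126 to 0.332 in the same edgeR test). With cells as library size only the CD23 difference in germinal center-like cells remained among these 6.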

How the results depend on the processing

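All alternatives to the class drawing by centring within sets, cluster 4, cluster 14, cells as library size, the 90th percentile gate, gates without plasmablast-like cells and RNA per cell were chosen after seeing the data. The 99th percentile of NK-like cells could not be used as a gate. In sets 1 and 2 it lay above the CD21-high threshold (213.35 against 207 and 991.87 against 178 CD21 tag UMIs). Without TMM the Fcer2a difference in follicular-like cells was −0.13 with 2561 genes called (1177 as reported); with cluster 4 it was 0.33 with 1794 genes called, and without treatment genes in the clustering 0.48. Fcer2a in transitional-like cells was 0.18, 0.47 and 1.24 with looser filters, without treatment genes and with centring within sets. The last brought a cluster of 99.6% IL-4+R848 cells into that class. Fcer2a in marginal zone-like cells was −0.23 with centring within sets. Fcer2a in plasmablast-like cells was −0.15 with a 16-fold hashtag rule, under which 693 genes were called over all B cells (1340 as reported). With cells as library size, 1 class in place of 4 differed from follicular-like cells in the CD23 response and 1 in place of 2 in the CD21 response; the differences reversed to −0.11, −0.29 and −0.14 for CD23 in early activated-, transitional- and marginal zone-like cells, and −0.13 and −0.75 for CD21 in transitional- and marginal zone-like cells, and the CD23 tag of the Zbtb32-led cells lay −0.56 from follicular-like cells.

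Gate shares changed most when tags were divided by the other surface tags: differences in percentage points were then −10.7 (CD21-high CD23-), −2.93 (CD21-high CD23+), −14.6 (CD21-mid CD23+), −14.0 (CD21-mid CD23-), 44.8 (CD21- CD23+) and −2.67 (CD21- CD23-). With CD21-high at the 80th percentile they were −7.64, −11.7 and −6.90 for CD21-high CD23-, CD21-high CD23+ and CD21-mid CD23-, with the 90th NK-like percentile −8.82 for CD21-high CD23+ and −6.56 for CD21- CD23-, and in cells of at least 3000 UMIs −9.46 for CD21-high CD23+. DESeq2 called 1367 genes between the gates (2076 as reported) and the IL-4+R848 cells gave 1119, with reversed values for Cfp (−0.29), Hes5 (−0.62), Ighv2-9-1 (−2.60), Ighv7-1 (4.23), Igkv13-85 (−4.51) and Igkv5-48 (−0.32; −0.33 in R848 without plasmablast-like cells). Median Spearman correlations after thinning, over the other tags and within follicular-like cells were 0.442, 0.533 and 0.364 (Fcer2a, R848), 0.361, 0.485 and 0.328 (Fcer2a, IL-4+R848), 0.377, 0.442 and 0.386 (Cr2, R848), and 0.247, 0.304 and 0.319 (Cr2, IL-4+R848).

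Leaving out each set in turn gave 0.72 to 1.02 for Fcer2a in all B cells with 161 to 992 genes called, −0.072 to 0.19 for Fcer2a in follicular-like cells with 505 to 899 genes called, and 1068 to 1281 genes between the gates; 0 to 3 classes differed in the CD23 response and 0 to 2 in the CD21 response. Differences from follicular-like cells ranged from −0.065 to 0.27 (CD21, germinal center-like), −0.34 to 0.016 (Fcer2a, transitional-like), −0.072 to 0.57 (Fcer2a, marginal zone-like), −0.23 to 0.51 (Cr2, germinal center-like) and −0.28 to 0.74 (Cr2, plasmablast-like).

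With set as a replicate block, Fcer2a was called in germinal center-like (0.97) and Zbtb32-led cells (0.80); without it 1 class differed in the CD21 response, the cycling difference being −0.62, and Fcgr2b, Ighv1-20, Ighv7-1 and Igkv4-62 were not called between gates. The block changed no other call of the members or the named genes, but list counts between gates moved. Without it 9 genes from the IL-4 receptor to STAT6 were lower (7 with it). The follicular program then had 0 higher (1 with it). In all, 2019 genes were called between gates without it and 2076 with it. The causes were not tested. Fold changes of genes under a few CPM, and gates of under 100 cells, are limited by depth.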

Other observations

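B cells outside the 8 classes also differed in both receptors. Cluster 14, set apart by low UMI counts (medians of 974 to 1638.5 per cell) and led by Sorl1 and Lifr, had a mean Fcer2a above those of the 8 classes and of clusters 4 and 13, though its R848 sets overlapped those of cluster 4, at 388, 542 and 323 CPM in R848 sets 1 to 3 and 565, 706 and 494 CPM in IL-4+R848. Its CD23 tag averaged 139, 203 and 98.7 UMIs per cell and 427, 398 and 428 UMIs, no higher than in follicular-like cells. These values rest on 19 to 204 cells a set. Leaving cluster 14 out of all B cells left the Fcer2a log2 difference per cell at 0.75 and that of the CD23 tag at 1.28.

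Cluster 13, which raised markers of B cell precursors such as Rag1 and Il7r, had lower levels. Fcer2a was 32.8, 37.1 and 21 CPM in R848 and 32.0, 63.3 and 90.4 CPM in IL-4+R848, and the median CD23 and CD21 tags, 15.2 and 5.00 UMIs in R848 and 16 and 4.33 in IL-4+R848, lay below those of NK-like cells.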
